A study of Homo sapiens with 30 samples.

Results

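The transcripts described here are 31 human genes that form the output of the transcription factor p53, with the family member TP63, the feedback genes MDM2, MDM4, PPM1D and CCNG1, and genes of cell cycle arrest, apoptosis, DNA repair and metabolism that p53 is known to switch on. They were chosen by symbol, and each was read from its brightest probe with a detection p under 0.05 on at least 3 arrays. A probe was found for 28 of the 31, and all 28 passed that filter, out of 13721 genes tested. TP63, BTG2 and FDXR matched no probe in the annotation at hand and were not analysed here, so the measured genes are p53 targets and regulators and hold no member of the p53 family itself.

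Messenger RNA was measured on 30 Illumina bead arrays of MCF-10A cells, a human mammary epithelial line that is not transformed. Every group, controls included, overexpressed cyclin E, an oncogenic driver of the G1 to S transition, together with a stably expressed short hairpin RNA (shRNA). The hairpins were shControl, shATM, shATR, shCHK1 and shCHK2, named after the kinases that signal DNA breaks (ATM and CHK2) and stalled replication forks (ATR and CHK1). Each was profiled in 2 sets of 3 replicates, which gives 10 groups of 3 arrays. Cells were seeded at 200000 per 10 cm dish and harvested after 48 hours of culture. Nothing in the labels says how the sets differ, which hairpin sequences were used, whether cells were clones, or whether replicates were separate cultures. Standard errors (SE) and p-values therefore cover only the variation among these arrays, which may be technical.

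ATM, ATR, CHK1 and CHK2 are known to act upstream of p53. They phosphorylate p53 and its partners after DNA damage, which frees p53 from the ubiquitin ligase MDM2 and lets it bind its target promoters. Among those targets is MDM2 itself, which closes a negative feedback loop, and CDKN1A, whose product p21 halts the cell cycle. p53 binds DNA as a tetramer, to a pair of copies of a consensus of 10 bases that lie side by side or a few bases apart.

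Promoter sequences are shown for MDM2 and PMAIP1, which stood higher in the knockdowns, for GDF15, which stood lower, and for DDB2, whose window holds an exact match to that consensus. They are RefSeq windows of 250 bases before to 50 after a gene start in build GRCh38.p14, on the plus strand, written 5′ to 3′ with the pair of p53 consensus decamers in capitals. The MDM2 window is chr12:68808767-68809066, the PMAIP1 window chr18:59899746-59900045, the GDF15 window chr19:18385908-18386207 and the DDB2 window chr11:47214724-47215023.
MDM2: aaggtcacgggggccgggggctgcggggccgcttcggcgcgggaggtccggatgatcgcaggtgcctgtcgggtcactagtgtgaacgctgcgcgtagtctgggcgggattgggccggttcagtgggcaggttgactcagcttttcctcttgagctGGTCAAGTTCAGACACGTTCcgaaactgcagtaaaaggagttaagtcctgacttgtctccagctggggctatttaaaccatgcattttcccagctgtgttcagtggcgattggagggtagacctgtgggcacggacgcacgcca
PMAIP1: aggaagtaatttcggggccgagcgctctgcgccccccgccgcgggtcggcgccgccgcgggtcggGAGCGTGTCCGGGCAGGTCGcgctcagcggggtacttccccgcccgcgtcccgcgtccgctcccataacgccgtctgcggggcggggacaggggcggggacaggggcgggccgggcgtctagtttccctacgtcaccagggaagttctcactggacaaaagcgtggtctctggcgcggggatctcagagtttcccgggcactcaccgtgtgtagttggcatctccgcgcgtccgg
GDF15: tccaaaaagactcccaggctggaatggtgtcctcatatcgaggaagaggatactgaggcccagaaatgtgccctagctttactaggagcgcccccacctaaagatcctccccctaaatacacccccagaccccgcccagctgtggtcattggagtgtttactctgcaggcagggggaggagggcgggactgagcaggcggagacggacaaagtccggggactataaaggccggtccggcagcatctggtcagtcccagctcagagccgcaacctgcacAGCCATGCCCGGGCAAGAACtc
DDB2: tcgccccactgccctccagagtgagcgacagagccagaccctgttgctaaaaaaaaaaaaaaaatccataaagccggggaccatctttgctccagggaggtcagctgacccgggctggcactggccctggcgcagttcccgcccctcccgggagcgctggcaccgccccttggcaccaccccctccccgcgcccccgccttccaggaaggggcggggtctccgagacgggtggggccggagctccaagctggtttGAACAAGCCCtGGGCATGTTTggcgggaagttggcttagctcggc

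The MDM2 pair lay from base -94 to -75 with 2 mismatches, and the PMAIP1 pair from -185 to -166 with 3. The GDF15 pair lay from base 29 to 48 with 3 mismatches, and the DDB2 pair from 6 to 26 with 0 mismatches and 1 base between the decamers. The consensus reads the same on both strands, so one search covers both, and pairs with up to 3 mismatches and up to 13 bases between them were counted. Such a pair was found in 10 of 33 windows of measured targets (30.3%) and in 12.8% of all 35116 windows. Windows of a gene can overlap, and the MDM2 pair was counted in each window that holds it. An exact pair was found in 10 windows (0.0285%). Of the 28 measured genes, 23 had a window and 9 had such a pair in at least 1 window. The windows of CDKN1A, CCNG2 and PPM1D held none, which says only that no such pair lies in these 300 bases. A match is a description of the letters and was not tested as a binding site here.

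Detection ranged from 18984 to 21732 probes per array, and signal over background from 15.1 to 22.3. Across genes, r was 0.988 to 0.996 between replicates and 0.896 to 0.931 between control and knockdown arrays. The targeted transcripts check the labels. Against shControl over both sets, ATM was lower in shATM by a log2 difference of -0.49 (SE 0.07), CHEK1 in shCHK1 by -0.78 (SE 0.08) and CHEK2 in shCHK2 by -0.35 (SE 0.09), each with n = 6 and 6. By set, ATM in shATM differed by -0.67 and -0.30 and CHEK1 in shCHK1 by -0.38 and -1.18, and all 4 values passed the test. CHEK2 in shCHK2 differed by -0.55 in set 1 (adjusted p = 0.00067) and by -0.15 in set 2, which did not pass (adjusted p = 0.34). In set 1 CHEK2 was also lower in the arrays labelled shATR, by -0.35 (adjusted p = 0.023). In set 2 it stood above shControl in shATM, the arrays labelled shATR and shCHK1, by 0.54, 0.71 and 0.57. Against the mean of the other 3 knockdowns, CHEK2 in shCHK2 was lower in both sets, by -0.35 and -0.76 (adjusted p = 0.023 and 2.2e-05 by limma). The main ATR probe passed detection on 2 of 6 controls and 11 of 24 knockdown arrays, and on 0 controls of set 1. In the arrays labelled shATR, ATR was higher by 0.34 (SE 0.11) over both sets. By set it differed by 0.65 in set 1 (adjusted p = 0.0014) and by 0.03 in set 2 (adjusted p = 0.89). That label thus cannot be checked by transcript. Replicate 3 of shATR set 2 and replicate 3 of shCHK2 set 1 stood apart from their replicates, and the counts of calls below were repeated without them.

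Control and knockdown arrays also differed in genes that are not p53 targets. CDKN2A, which encodes p16 and the MDM2 inhibitor ARF and is known to be deleted in MCF-10A, was above background on all 24 knockdown arrays and on 0 of 6 controls. CCNE1, which encodes cyclin E1, stood at a log2 level of 8.49 to 9.09 on control and 6.08 to 7.91 on knockdown arrays. The summed level of 10 luminal markers ran from 27279 to 32824 on control arrays, from 16696 to 18114 in knockdown set 1 and from 13374 to 15494 in knockdown set 2. For mesenchymal markers, 7 of 10 listed were measured, and their summed level was 1130 to 1386 on control arrays, 5270 to 11377 in knockdown set 1 and 5279 to 7534 in knockdown set 2. FN1 and COL1A1 were detected on no control array, and COL1A1 on only 5 knockdown arrays of set 1 and 1 of set 2. ZEB2 went the other way in set 2, where it was detected on 2 control and 0 knockdown arrays. Basal markers, 6 of 10 measured, summed to 7698 to 12548, 19022 to 29690 and 8424 to 11571 in the same order. Leukocyte markers, 3 of 6 measured, summed to 2670 to 4451, 1606 to 2262 and 1680 to 2517. Of these, LAPTM5 went against the sum in set 1, detected on 0 control and 12 knockdown arrays and at least 4.41-fold higher in the knockdowns. Endothelial markers, 2 of 4 measured, summed to 201 to 317, 41.9 to 65.7 and 43.8 to 68.6, and CDH5 was detected on no knockdown array. The luminal, mesenchymal, leukocyte and endothelial sums thus separate control from knockdown arrays in both sets, and the basal sum sets knockdown set 1 apart. A sum follows its brightest genes, and not every marker moved with the sum of its list. The part of these markers in the differences of p53 target genes was not tested. All arrays are of the same cultured epithelial line, so a marker list here names genes and does not count cells of that type. In bulk RNA, fewer cells with a transcript and less of it per cell cannot be told apart.

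In cells with any of the 4 knockdown hairpins, the p53 target genes split. MDM2, GADD45A, PMAIP1 and EI24 were higher than in shControl in both sets on the mean of the 4 knockdowns. GDF15, CCNG2, TP53INP1, RRM2B, CDKN1A, PPM1D, SESN1, BAX, BBC3 and PERP were lower in both sets. These 4 higher and 10 lower of 28 genes (50%) compare with 38.9% of all genes tested, of which 17.7% were higher and 21.2% lower. Without the pair of arrays that stood apart the split was again 4 and 10. With median scaling in place of quantile normalization it was 6 and 8, as BAX and PERP lost the call and PLK2 and TRIAP1 gained it. On the mean of both sets, 7 targets were higher and 14 lower (75%, and 64.8% of all genes). Changes ran from a log2 difference of 2.42 for MDM2 (5.36-fold higher, SE 0.09, n = 24 and 6) to -3.40 for GDF15 (10.5-fold lower, SE 0.05). A gene counts as called when its adjusted p from limma's moderated test is under 0.05, and in both sets when it passes against the controls of its own set each time, with one sign.

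**Figure D1:**
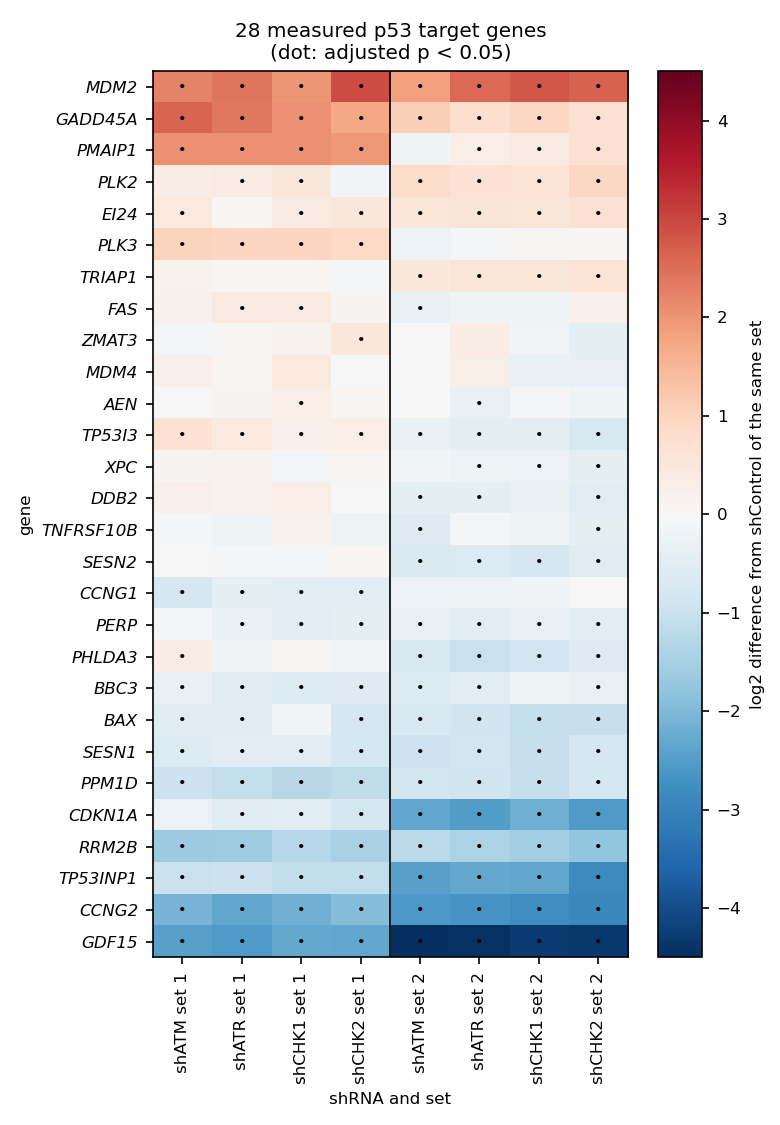
Heat map of the log2 difference from shControl of the same set (colour) for 28 p53 target genes (rows, ordered by mean) in 4 knockdowns and 2 sets (columns, 3 against 3 arrays each), with a dot where the adjusted p is under 0.05. MDM2 and GADD45A at the top are higher and GDF15, CCNG2, TP53INP1, RRM2B and PPM1D at the bottom lower in all 8 columns, while PMAIP1 ranges from 2.06 to -0.20.

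Each knockdown taken alone gave like counts. In shATM, 3 targets were higher and 8 lower in both sets (39.3% of 28), beside 32.2% of all genes, with 14.3% higher and 17.9% lower. In the arrays labelled shATR, 4 were higher and 10 lower (50%), beside 33.3% of all genes, 15.1% higher and 18.2% lower. In shCHK1, 5 were higher and 8 lower (46.4%), beside 33.4% of all genes, 15.1% higher and 18.4% lower. In shCHK2, 4 were higher and 10 lower (50%), beside 33.9% of all genes, 15.3% higher and 18.6% lower. MDM2 and GADD45A were higher, and PPM1D, CCNG2, TP53INP1, RRM2B, SESN1 and GDF15 lower, in all 4 knockdowns of both sets. These comparisons share the controls of each set, so the likeness of their counts is not independent evidence. Without the pair of arrays that stood apart, the counts were 13, 15, 13 and 14. The median log2 difference of the 28 genes was 0.04 in set 1 and -0.37 in set 2, beside 0.01 and -0.004 for all genes.

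On the plain level scale, the 6 control and 24 knockdown arrays did not overlap for 8 of the 28 genes (28.6%), namely MDM2, PPM1D, CDKN1A, GADD45A, CCNG2, TP53INP1, RRM2B and GDF15. Of all genes, 21.1% had no overlap. Levels below are log2 of the background-corrected, quantile-normalized intensity and are compared between arrays of one probe, never between genes.

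**Figure D2:**
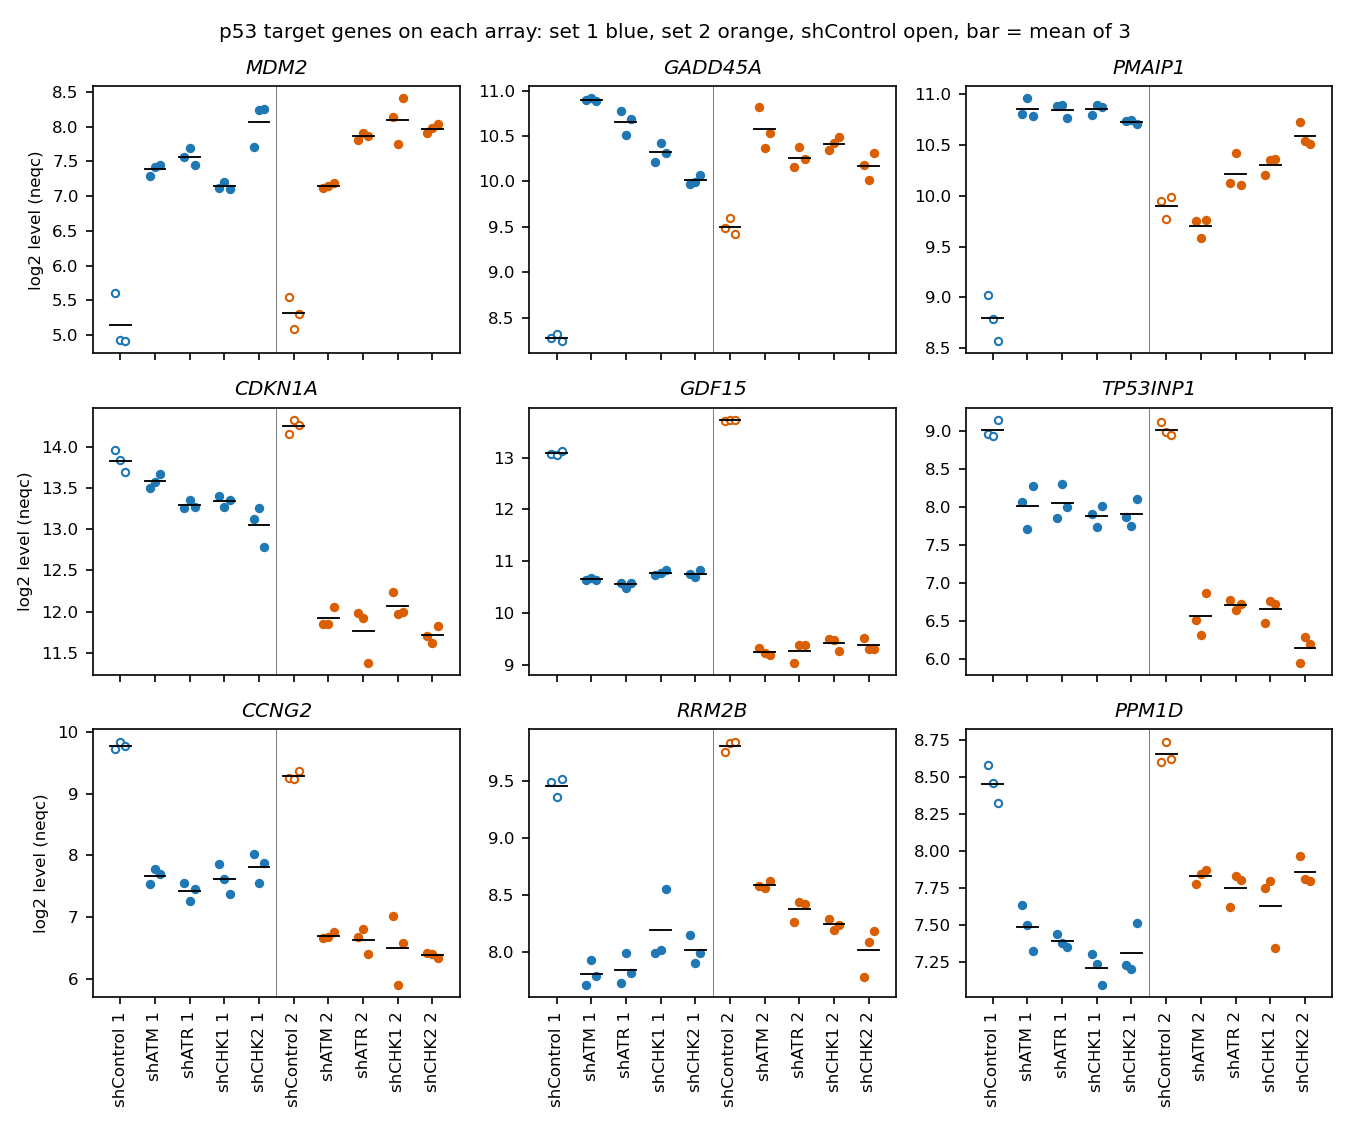
log2 level (y axis, normalized intensity) of 9 p53 target genes on each of 30 arrays, in 10 groups of 3 (x axis; shControl open, set 1 blue, set 2 orange, bar = mean of 3). For 8 of the genes every control array lies on one side of every knockdown array, and for PMAIP1 the control arrays of set 2 (9.77 to 9.99) lie within the range of the knockdown arrays of that set (9.58 to 10.7).

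Among the feedback genes, MDM2, the ubiquitin ligase that sends p53 to the proteasome, rose most. Its log2 levels were 5.61, 4.92 and 4.91 in shControl set 1 and 5.55, 5.09 and 5.31 in shControl set 2. In set 1 they were 7.29, 7.43 and 7.45 in shATM, 7.56, 7.69 and 7.45 in the arrays labelled shATR, 7.12, 7.21 and 7.11 in shCHK1, and 7.71, 8.24 and 8.25 in shCHK2. The lowest knockdown array, at 7.11, lay above the highest control array, at 5.61. In set 2 the same groups held 7.11, 7.15 and 7.19, then 7.81, 7.91 and 7.87, then 8.14, 7.75 and 8.41, then 7.91, 7.97 and 8.03. The difference on the mean of the 4 knockdowns was 2.39 in set 1 (5.25-fold, SE 0.13, n = 12 and 3, adjusted p = 1.6e-14) and 2.45 in set 2 (5.47-fold, SE 0.13, adjusted p = 9.5e-15). This probe (ILMN_1736829) passed detection on 4 of 6 controls and all 24 knockdown arrays, so the control level is near background. A dimmer MDM2 probe passed it on 0 of 6 controls and 20 of 24 knockdown arrays and differed by 0.54 and 0.67.

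PPM1D encodes WIP1, the phosphatase that removes ATM-dependent phosphates from p53 and its kinases. Its levels were 8.58, 8.46 and 8.33 in shControl set 1 and 8.60, 8.74 and 8.62 in set 2. The 12 knockdown arrays of set 1 ran from 7.09 to 7.63 with a median of 7.34, and those of set 2 from 7.34 to 7.96 with a median of 7.80. All 24 lay below all 6 controls. PPM1D fell, with differences of -1.11 in set 1 and -0.89 in set 2 (SE 0.09, adjusted p = 4.3e-11 and 2.6e-09), so it moved opposite to MDM2.

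CCNG1, cyclin G1, which recruits a phosphatase to MDM2, fell in set 1 by 0.55 (SE 0.09, adjusted p = 1.6e-05) and differed by -0.16 in set 2 (adjusted p = 0.15). Its dimmer probe gave -0.59 and 1.16, so the probes disagree in set 2. MDM4, the MDM2 relative that blocks the activation domain of p53, ran from 5.01 to 5.64 on control and 4.66 to 5.85 on knockdown arrays. Its differences of 0.18 and -0.11 did not pass the test (SE 0.15, adjusted p = 0.35 and 0.57), and its dim probe was detected on 27 of 30 arrays.

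Of the 6 genes of cell cycle arrest and growth, GADD45A was higher and CDKN1A and CCNG2 lower in both sets. CDKN1A encodes p21, the inhibitor of cyclin-dependent kinases through which p53 is known to stop the cycle. Its log2 levels were 13.96, 13.85 and 13.70 in shControl set 1, and in that set 13.51, 13.58 and 13.68 in shATM, 13.26, 13.36 and 13.27 in the arrays labelled shATR, 13.41, 13.27 and 13.36 in shCHK1, and 13.13, 13.26 and 12.78 in shCHK2. The highest knockdown array, in shATM, came within 0.02 of the lowest control array. In set 2, shControl held 14.17, 14.34 and 14.28, and the same knockdowns held 11.85, 11.84 and 12.06, then 11.98, 11.92 and 11.37, then from 11.97 to 12.24 over 3 arrays, then 11.70, 11.61 and 11.82. The groups lay far apart there. The difference was thus -0.51 in set 1 (1.43-fold lower, SE 0.10, adjusted p = 0.00014) and -2.40 in set 2 (5.26-fold lower, SE 0.10, adjusted p = 1.1e-16), and in shATM set 1 alone (-0.25, adjusted p = 0.1) it did not pass the test. A second, dim CDKN1A probe gave 0.90 and -0.15, so the fall rests on the bright probe (ILMN_1784602).

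GADD45A, a small protein that binds PCNA and p21 and slows the G2 to M transition, went the other way. Its levels were 8.27, 8.32 and 8.24 in shControl set 1 and 9.49, 9.59 and 9.42 in shControl set 2. In set 1 they were 10.90, 10.92 and 10.88 in shATM, 10.77, 10.52 and 10.69 in the arrays labelled shATR, 10.21, 10.43 and 10.32 in shCHK1, and 9.97, 9.99 and 10.07 in shCHK2. The 4 knockdowns of that set do not overlap one another, with shATM highest and shCHK2 lowest. In set 2 they were 10.82, 10.37 and 10.53, then 10.16, 10.38 and 10.25, then 10.34, 10.42 and 10.49, then 10.18, 10.02 and 10.32, where shCHK2 overlaps the arrays labelled shATR but neither shATM nor shCHK1. The rise over shControl was 2.19 in set 1 (4.57-fold, SE 0.08, adjusted p = 3e-18) and 0.86 in set 2 (1.81-fold, SE 0.08, adjusted p = 9.1e-10). A second probe gave 2.15 and 0.38.

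CCNG2, cyclin G2, an atypical cyclin linked to cell cycle exit, stood at 9.72, 9.84 and 9.76 in shControl set 1 and at 9.25, 9.24 and 9.37 in shControl set 2. Knockdown arrays ran from 7.27 to 8.02 (median 7.58) in set 1 and from 5.92 to 7.03 (median 6.63) in set 2, below every control array. The difference was -2.14 in set 1 (4.41-fold lower, SE 0.14) and -2.73 in set 2 (6.62-fold lower, SE 0.14), with adjusted p = 6e-13 and 3.7e-15. Its other probes gave -2.12 and -2.16, and -1.33 and -1.63.

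The polo-like kinases and ZMAT3 gave smaller or split values. PLK3 rose in set 1 by 0.96 (SE 0.16, adjusted p = 1.7e-05) and differed by -0.06 in set 2 (adjusted p = 0.79). PLK2 rose in set 2 by 0.76 (SE 0.13, adjusted p = 1e-05) and differed by 0.27 in set 1 (adjusted p = 0.073). ZMAT3, an RNA-binding protein, differed by 0.16 and -0.04 on its brightest probe (adjusted p = 0.43 and 0.86), but its other probes gave -0.94 and -1.75, and -1.40 and -1.71. The mean of its 3 probes was lower by -0.95 over both sets (SE 0.05, adjusted p = 3.7e-15), so no single value for ZMAT3 can be given.

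The 12 genes linked to apoptosis held 2 called higher and 4 called lower in both sets (50%, beside 38.9% of all genes). PMAIP1, which encodes the BH3-only protein NOXA, stood at 9.02, 8.79 and 8.57 in shControl set 1 against 10.71 to 10.96 in knockdown set 1. In set 2, shControl stood at 9.95, 9.77 and 9.99 against 9.58 to 10.72. The rise was thus 2.03 in set 1 (4.08-fold, SE 0.08, adjusted p = 2.9e-17) and 0.30 in set 2 (SE 0.08, adjusted p = 0.003), and in shATM set 2 the difference was -0.20 (adjusted p = 0.12). A second PMAIP1 probe gave 1.93 and 1.06, so the size of the rise in set 2 depends on the probe. BBC3, which encodes the related BH3-only protein PUMA, fell in both sets, with differences of -0.52 and -0.41 (SE 0.11, adjusted p = 0.00014 and 0.0014). BAX, the pore former that these proteins release, fell too, with -0.50 and -0.93 (SE 0.10, adjusted p = 0.00017 and 1.3e-08).

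TP53INP1, a stress protein of autophagy and p53 activation, stood at 8.95, 8.92 and 9.14 in shControl set 1 and 9.11, 8.98 and 8.94 in shControl set 2. Knockdown arrays ran from 7.71 to 8.30 (median 7.95) in set 1 and from 5.95 to 6.87 (median 6.58) in set 2. The control sets lay at one level and the knockdown sets did not overlap each other. The difference of TP53INP1 was -1.04 (2.06-fold lower, SE 0.12, adjusted p = 2.3e-08) and -2.49 (5.62-fold lower, adjusted p = 6.2e-16), and a second probe gave -1.17 and -2.35.

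The rest of the apoptosis genes moved less. PERP, a desmosomal membrane protein, fell, with -0.31 and -0.42 (SE 0.07, adjusted p = 0.00088 and 2.7e-05). EI24, a protein of the endoplasmic reticulum, rose by 0.36 and 0.59 (SE 0.12, adjusted p = 0.011 and 0.0001). TP53I3, the quinone oxidoreductase PIG3, rose in set 1 by 0.41 and fell in set 2 by 0.47 (SE 0.07, adjusted p = 2.9e-05 and 3e-06). Its dimmer probe gave 0.30 and 0.02, so the fall in set 2 rests on the brightest probe. PHLDA3, a repressor of AKT, fell in set 2 by 0.78 (SE 0.08, adjusted p = 1.2e-09) and differed by 0.02 in set 1. TRIAP1, an inhibitor of apoptosis, rose in set 2 by 0.54 (SE 0.11, adjusted p = 0.00021) and differed by 0.07 in set 1.

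The death receptors FAS and TNFRSF10B showed no call in both sets. FAS rose in set 1 by 0.27 (SE 0.09, adjusted p = 0.011) and differed by -0.12 in set 2, and TNFRSF10B differed by -0.10 in set 1 and fell in set 2 by 0.33 (SE 0.10, adjusted p = 0.005). The other TNFRSF10B probes gave 0.39 and 0.13, and -0.05 and 0.20, so its fall in set 2 rests on the brightest probe. AEN, an apoptotic nuclease, differed by 0.14 and -0.14 (SE 0.08, adjusted p = 0.15 and 0.13). Its dimmer probe gave -0.19 and -0.69.

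Among the 3 genes of DNA repair and nucleotide supply, RRM2B changed most. It encodes p53R2, the ribonucleotide reductase subunit that supplies deoxynucleotides for repair outside S phase. Its levels were 9.49, 9.36 and 9.51 in shControl set 1 and 9.76, 9.83 and 9.85 in shControl set 2. Knockdown arrays ran from 7.71 to 8.56 (median 7.96) in set 1 and from 7.78 to 8.62 (median 8.28) in set 2, all below the controls. RRM2B was 2.81-fold lower in set 1 and 2.84-fold lower in set 2 (SE of the log2 difference 0.10, adjusted p = 4.3e-13 and 3.6e-13), and its second probe gave -1.34 and -2.50. The damage sensors of nucleotide excision repair were lower than shControl in set 2, by -0.40 for DDB2 (SE 0.10, adjusted p = 0.0011) and -0.26 for XPC (SE 0.08, adjusted p = 0.0044). The set 2 controls stood above those of set 1, by 0.63 for DDB2 and 0.31 for XPC (adjusted p = 0.00088 and 0.032). Between the sets the knockdown arrays differed by 0.04 and -0.04 (adjusted p = 0.59 and 0.48). Within set 1, DDB2 and XPC differed from shControl by 0.18 and 0.08 (adjusted p = 0.15 and 0.38). The difference between sets passed its own test for both, as given further on.

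The last genes act in metabolism and secreted signalling. GDF15, a secreted cytokine of the TGF-beta family that rises with many stresses, showed the largest difference of the 28 genes in set 2. Its levels were 13.07, 13.06 and 13.13 in shControl set 1 and 13.70, 13.73 and 13.73 in shControl set 2. Knockdown arrays ran from 10.48 to 10.83 (median 10.69) in set 1 and from 9.04 to 9.52 (median 9.31) in set 2, with no overlap between any of these blocks of arrays. The difference was -2.40 in set 1 (5.29-fold lower, SE 0.07, adjusted p = 2.5e-20) and -4.39 in set 2 (21-fold lower, SE 0.07, adjusted p = 6.6e-26). SESN1, a sestrin that restrains mTORC1, stood at 7.71, 7.91 and 7.98 and at 8.44, 8.47 and 8.41 in the controls of sets 1 and 2. Its knockdown arrays ran from 6.87 to 7.52 (median 7.26) and from 7.23 to 7.82 (median 7.56), below the controls of their own set. SESN1 fell, with -0.58 and -0.87 (SE 0.10, adjusted p = 2.9e-05 and 5.2e-08). SESN2 was near background and was detected on 10 of 30 arrays, 5 of 6 controls and 5 of 24 knockdowns. It was at least 1.23-fold lower in knockdown set 2, where no array detected it (adjusted p = 0.00091).

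The pathway around these genes was read from 3 further lists. Of 24 measured kinases and regulators upstream of p53, 4 were higher and 5 lower in both sets (37.5%, near the 38.9% of all genes). CDKN2A, whose ARF product inhibits MDM2, was at least 12.9-fold higher in set 1 and at least 17.5-fold higher in set 2, and the arginine methyltransferase PRMT5 rose by 0.99 and 1.36. PPP1R13B, a cofactor of p53 in apoptosis, fell with -0.74 and -0.68, the deubiquitinase USP7 with -0.46 and -0.67, and the acetyltransferase CREBBP with -0.64 and -0.57.

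Of 51 further p53 target genes measured, 10 were higher and 17 lower in both sets (52.9%), beside 38.9% of all genes, 17.7% higher and 21.2% lower. The lysosomal fucosidase FUCA1 rose by 1.79 and 1.32, the matrix protein THBS1 by 2.35 and 1.16, the glycolysis regulator TIGAR by 1.33 and 0.66 and the ubiquitin ligase subunit FBXO22 by 0.71 and 0.66. PGF, placental growth factor, rose by 3.05 and 1.10 and passed detection on 2 of 6 controls and all 24 knockdown arrays. IGFBP3, which binds insulin-like growth factors, fell in set 1 by 6.45, and it was at least 63.3-fold lower in set 2, where no knockdown array detected it. PADI4, a peptidylarginine deiminase, passed detection on all 6 controls and on 1 of 24 knockdown arrays, in set 1, and was at least 56.8-fold lower in set 2. NINJ1, a membrane rupture protein, fell with -2.51 and -2.46, CYFIP2 with -3.69 and -2.37, and SPATA18, a protein of mitochondrial quality control, with -1.57 and -2.26. Each change named in these lists passed the test in all 4 knockdowns of both sets.

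The third list holds 29 measured cell cycle genes that p21 is known to repress through the DREAM complex. Of them 7 were higher and 4 lower in both sets (37.9%), a share near the 38.9% of all genes. The count was 5 higher and 8 lower in shATM, 7 and 2 in the arrays labelled shATR, 8 and 0 in shCHK1 and 8 and 2 in shCHK2. Genes called in all 4 knockdowns of both sets were higher ones. CDC20 rose by 0.79 and 0.65, the survivin gene BIRC5 by 0.83 and 0.66, AURKA by 0.88 and 0.68, BUB1 by 0.66 and 0.61 and KIF23 by 0.66 and 0.35. The list's median difference was 0.04 in set 1 and 0.23 in set 2, beside 0.01 and -0.004 for all genes. In shATM set 1 it was -0.22, with 7 of 29 genes above 0.

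The sets differed, both in the knockdowns, as given below, and in the controls taken by themselves. Of the 28 targets, 12 were higher in shControl set 2 than in shControl set 1 and 1 was lower (42.9% and 3.57%), while 15.3% of all genes were called, 8.17% higher and 7.18% lower. GADD45A was higher by 1.22 (SE 0.10, n = 3 and 3, adjusted p = 1.5e-09), PMAIP1 by 1.11 (SE 0.11, adjusted p = 1.3e-08), BAX by 0.69 (SE 0.13, adjusted p = 0.00032) and GDF15 by 0.63 (SE 0.09, adjusted p = 1e-05). CDKN1A, PLK3, FAS, AEN, DDB2, XPC, RRM2B and SESN1 were higher by 0.31 to 0.67, and PERP was lower by -0.30 (SE 0.09, adjusted p = 0.029). MDM2 differed by 0.17 (SE 0.17, adjusted p = 0.6) and TP53INP1 by 0.003. The median over the 28 was 0.25, beside -0.002 for all genes.

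**Figure D3:**
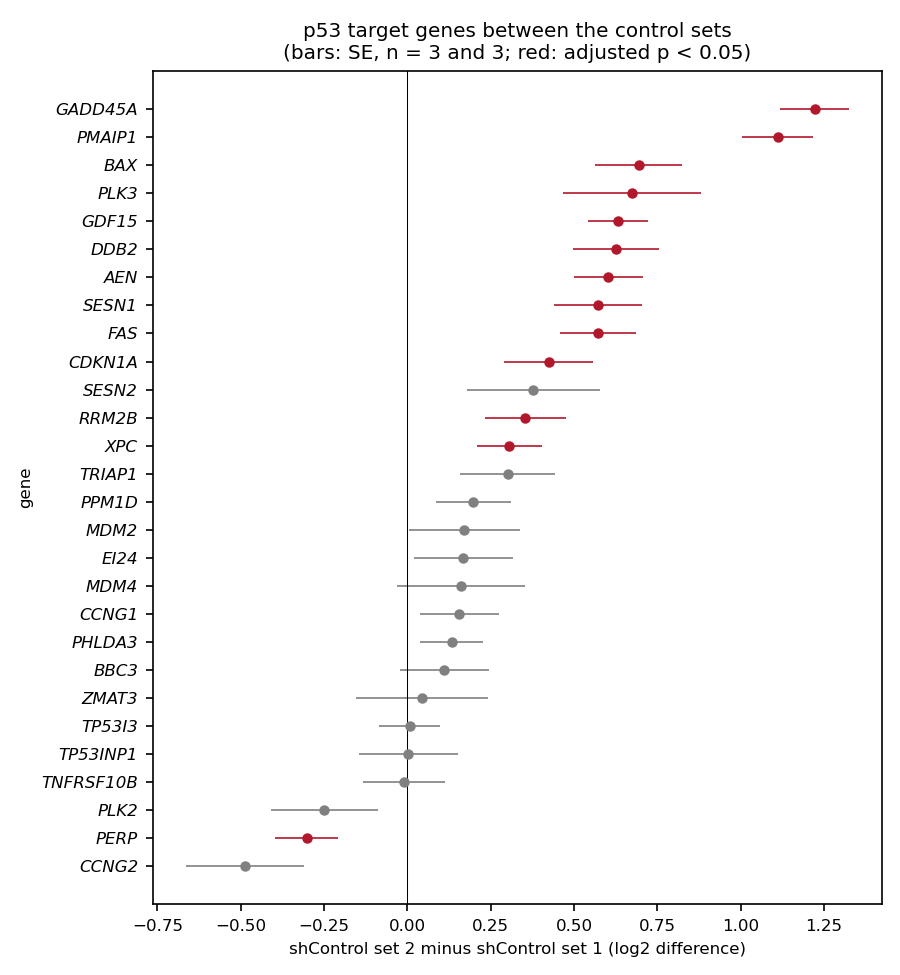
log2 difference between shControl set 2 and shControl set 1 (x axis) for 28 p53 target genes (y axis, ordered by value), with SE bars from 3 and 3 arrays and red points where the adjusted p is under 0.05. The red points lie between 0.31 and 1.22 for 12 genes and at -0.30 for PERP.

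The further p53 targets gave 18 higher and 4 lower of 51 (35.3% and 7.84%), the upstream regulators 1 higher and 0 lower of 24, and the DREAM list 3 higher and 0 lower of 29. Under median scaling, which moved the share of higher calls among all genes from 53.2% to 68.8%, 11 of the 28 were higher and 0 lower, beside 7.46% and 3.37% of all genes. Leaving out 1 control array at a time gave 9 to 10 calls in place of 13, and without the pair of knockdown arrays that stood apart 11 were higher and 1 lower. The labels give no batch for the sets, so a technical and a biological difference between them cannot be told apart.

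Between the knockdown sets, 12 of the 28 were higher and 11 lower in set 2 than in set 1 on the mean of the 4 knockdowns (82.1%), beside 58.5% of all genes, 25.1% higher and 33.5% lower. With median scaling this split was 5 higher and 12 lower, and the share of higher calls among all genes went from 42.8% to 31.1%. CDKN1A was lower in knockdown set 2 by -1.46 (SE 0.07, adjusted p = 4.8e-16), TP53INP1 by -1.44 (SE 0.07, adjusted p = 7e-15), GDF15 by -1.36 (SE 0.05, adjusted p = 1e-18) and TP53I3 by -0.87 (SE 0.05, adjusted p = 1.1e-14), and each of them was called in all 4 knockdowns. TRIAP1 was higher by 0.77 (SE 0.07, adjusted p = 8.8e-10). In shATM alone, 6 targets were higher and 11 lower in set 2 than in set 1, beside 38.9% of all genes, 16.4% higher and 22.5% lower. In the arrays labelled shATR 6 were higher and 9 lower, beside 37.1% of all genes, 15.3% higher and 21.9% lower. In shCHK1 5 were higher and 9 lower, beside 36.6% of all genes, 15.3% higher and 21.3% lower, and in shCHK2 9 were higher and 8 lower, beside 41% of all genes, 17.1% higher and 23.8% lower.

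Within set 1, 7 targets were called higher and 11 lower against shControl (64.3%), beside 55.7% of all genes, 28.1% higher and 27.6% lower. Within set 2, 6 were higher and 16 lower (78.6%), beside 60.3% of all genes, 28.2% higher and 32.1% lower. Under median scaling the set 1 split was 13 higher and 9 lower, and the share of higher calls among all genes went from 50.4% to 65.2%. Under it the median of all genes in the set 1 contrast went from 0.01 to 0.13. MDM2, GADD45A, PMAIP1 and EI24 stayed higher in both sets under it, with MDM2 at 2.52 and 2.29.

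The difference between sets was also tested itself, as the difference of knockdown minus shControl in set 2 and in set 1. It passed for 17 of the 28 targets, 3 with a higher and 14 with a lower value in set 2 (60.7%), beside 37% of all genes, 15.5% higher and 21.5% lower. GDF15 gave -1.99 (SE 0.10), CDKN1A -1.88 (SE 0.15), PMAIP1 -1.73 (SE 0.12), TP53INP1 -1.45 (SE 0.17) and GADD45A -1.34 (SE 0.12). For GADD45A the set 2 controls stood higher, as given above, while the knockdown sets differed by -0.12 (adjusted p = 0.057). For TP53INP1, whose controls were level, the knockdown arrays of set 2 stood lower. For CDKN1A, GDF15 and PMAIP1 both held, with PMAIP1 lower in knockdown set 2 by -0.62 (SE 0.05, adjusted p = 1.7e-10). The differences of MDM2 (0.06, SE 0.19), RRM2B (-0.01, SE 0.14) and PPM1D (0.22, SE 0.13) did not pass (adjusted p = 0.84, 0.96 and 0.19). A missed threshold does not show that the sets are alike for them. These values are from the brightest probe. The second RRM2B probe gave -1.34 in set 1 and -2.50 in set 2, so the sets lay apart on it. The second PMAIP1 probe gave 1.93 and 1.06, a smaller gap between sets than on the brightest probe.

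**Figure D4:**
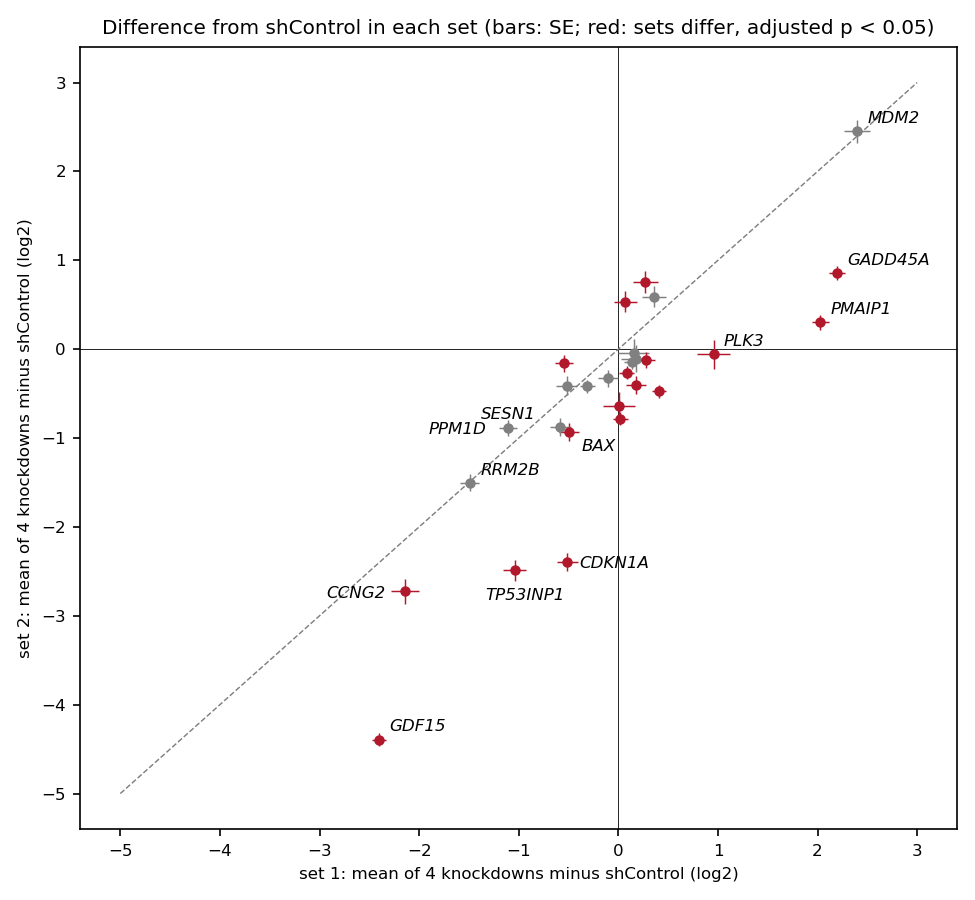
Each point is 1 of 28 p53 target genes, at its log2 difference between the mean of 4 knockdowns and shControl in set 1 (x axis) and set 2 (y axis), with SE bars, and red where the 2 differences differ at an adjusted p under 0.05. MDM2, RRM2B and PPM1D lie near the dashed line of equal values, while CDKN1A (-0.51 and -2.40) and GDF15 (-2.40 and -4.39) lie below it. Points show the brightest probe, and the second RRM2B probe, not drawn, gave -1.34 and -2.50.

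The knockdowns were also compared with one another. An F test over the 4 knockdown averages passed for 7 of the 28 targets (25%, and 18.5% of all genes), namely MDM2, CDKN1A, GADD45A, PMAIP1, TNFRSF10B, TP53I3 and PHLDA3. None of the 7 passed when the 3 arrays of a group were treated as a random block. Averages over sets ranged from 7.27 in shATM to 8.02 in shCHK2 for MDM2 and from 10.09 in shCHK2 to 10.74 in shATM for GADD45A.

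Set against the mean of the other 3 knockdowns in both sets, shATM had 1 of 28 targets called (3.57%), beside 2.59% of all genes, 1.77% higher and 0.816% lower. That gene was GADD45A, higher by 0.57 in set 1 and 0.29 in set 2 (SE 0.08, adjusted p = 3.2e-05 and 0.024). The call was lost under median scaling and without replicate 1 or replicate 3 of shATM set 2. By limma, 0 targets were called in the arrays labelled shATR, beside 0.0364% of all genes (0.0219% higher and 0.0146% lower), 0 in shCHK1, beside 0.35% (0.0802% and 0.27%), and 0 in shCHK2, beside 1.56% (0.619% and 0.94%). At an unadjusted p under 0.05 in both sets, shATM had 2 targets (beside 6.56% of all genes), the arrays labelled shATR 1 (0.547%), shCHK1 0 (1.68%) and shCHK2 2 (4.46%). On the mean of both sets, shATM had 4 targets higher and 4 lower than the others (28.6%), beside 16.2% of all genes, 8.45% higher and 7.73% lower. shCHK2 had 2 higher and 5 lower (25%), beside 11.3% of all genes, 4.86% higher and 6.4% lower. The arrays labelled shATR had 0 higher and 1 lower, beside 0.991% of all genes (0.678% and 0.313%), and shCHK1 had 0, beside 4.56% (1.62% and 2.94%). MDM2 was lower in shATM by -0.52 and higher in shCHK2 by 0.48 (SE 0.10, adjusted p = 0.00039 and 0.0012), and GADD45A was higher in shATM by 0.43 and lower in shCHK2 by -0.43 (SE 0.06, adjusted p = 8.6e-06 and 1.5e-05). In single sets, MDM2 was lower in shATM set 2 by -0.83 (SE 0.14, adjusted p = 0.00012) and higher in shCHK2 set 1 by 0.70 (SE 0.14, adjusted p = 0.0011), and neither passed in the other set (-0.20 and 0.27). PMAIP1 was lower in shATM set 2 by -0.67 (SE 0.09, adjusted p = 4.5e-06) and higher in shCHK2 set 2 by 0.52 (adjusted p = 0.00033).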

How the data were processed

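Deposited files hold 2 kinds of values for the same 30 bead arrays. The first is a linear intensity per probe and array, not normalized per the file headers, with a detection p-value for each intensity, which per the file headers stands beside it. The second is the log2 table that the authors deposited as normalized, in which each column has a median of 6.88 and correlates at 0.998 or above with its own array. Further steps of the authors are not given in the sources used here.

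The neqc function of limma 3.58.1 removed background and applied quantile normalization (R 4.3.3, offset 16, negative controls inferred from detection p). A probe was kept at a detection p under 0.05 on at least 3 arrays, which left 26967 of 47231 probes. Of all probes, 30113 had 1 gene symbol, 8 several and 17110 none in the annotation given. The brightest kept probe stood for a gene. A limma model with 10 group means (20 residual degrees of freedom) was fitted to all genes, with two-sided p-values adjusted by the Benjamini-Hochberg method over 13721 genes. The model was tested on simulated data with independent noise on each array. That test cannot show how calls hold where the arrays of a group vary together. A bound such as "at least 12.9-fold" takes undetected arrays no lower than their dimmest detected probe. The number of arrays limits the precision. The 31 genes, the pathway lists and the tests were chosen with earlier results of these data known. Array values, for some genes as the range over 12 knockdown arrays, are given for genes called in all 4 knockdowns in both sets, for MDM2 and CDKN1A, and for genes called against the other knockdowns. From each pathway list, up to 5 per direction called in all 4 knockdowns in both sets with the largest smallest difference are named. Genes outside the 31 also named are the hairpin targets, CCNE1 and CDKN2A. Alternatives were the deposited log2 values, no background correction, median scaling, a stricter and no probe filter, the mean of a gene's probes, a replicate block, a random block and leaving out arrays.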

Additional observations from a re-analysis of the deposited data

Results flagged for a closer look

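Knockdown minus shControl differed between the sets, by a test of that difference itself, for 17 of the 28 p53 targets and for 10 other genes named above (adjusted p from 4.1e-14 to 0.035 by limma, 3 arrays a group). Values are the log2 difference in set 2 minus that in set 1, on the brightest probe of each gene. A value below 0 means a smaller rise, a deeper fall or a change from higher to lower in set 2. Higher controls or lower knockdown arrays in set 2 can each give it. Among the cell cycle genes CDKN1A gave -1.88, GADD45A -1.34, PLK3 -1.01, CCNG2 -0.59 and PLK2 0.49, and the feedback gene CCNG1 gave 0.39. Among the apoptosis genes PMAIP1 gave -1.73, TP53INP1 -1.45, TP53I3 -0.88, PHLDA3 -0.80, BAX -0.43, FAS -0.40 and TRIAP1 0.47. GDF15 gave -1.99, SESN2 -0.65, DDB2 -0.58 and XPC -0.35. Of the other p53 targets, PGF gave -1.96, PADI4 -1.41, CYFIP2 1.32, THBS1 -1.19, SPATA18 -0.69, TIGAR -0.67 and FUCA1 -0.47. PADI4 passed detection on 1 of 24 knockdown arrays, so its value is limited by detection in both sets. PRMT5 gave 0.37, KIF23 -0.31 and CCNE1, which encodes cyclin E1, -0.65. The part of the lower CCNE1 level in these values was not tested.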

How the results depend on the processing

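The counts of targets called against shControl, between sets and in the interaction stayed within 1.5 times the reported count under the alternatives run for them. The random block was not run for these counts. Leave-one-out ranges were 9 to 12 for shATM, 12 to 14 for shATR, 11 to 13 for shCHK1 and 13 to 15 for shCHK2. For the mean of 4 knockdowns in both sets the range was 13 to 15. Between control sets it was 9 to 10, between knockdown sets 23 to 24 and in the interaction 12 to 18. Counts of differences among knockdowns did not stay within 1.5 times. For shATM against the others the count was 2 with the deposited log2 values, without background correction, with the strict probe filter (detection p under 0.01 on at least 6 arrays) and without the pair of arrays that stood apart, 0 with median scaling, and 0 to 2 when 1 array was left out. For shCHK2 it was 1 with the deposited log2 values and without background correction, and 0 to 1 with 1 array left out. The F test gave 11 with the deposited log2 values and 11 without background correction, 0 with a random block and 6 to 10 with 1 array left out. Over both sets, ZMAT3 turned to -0.95 with the mean of probes and to -0.00199 without the pair of arrays, TNFRSF10B to 0.039 with the mean of probes, TP53I3 to 0.082 with median scaling and 0.064 with the mean of probes, AEN to 0.17 with median scaling and 0.0039 without the pair, and XPC to 0.028 with median scaling. With the mean of probes AEN gained a call as lower (-0.22, adjusted p = 0.0014 by limma). CCNG1 lost its call with median scaling (-0.13, adjusted p = 0.19) and with the mean of probes (-0.033, adjusted p = 0.69). TNFRSF10B lost its call with median scaling (-0.013, adjusted p = 0.90) and with the mean of probes (adjusted p = 0.69). With 1 array left out AEN ran from -0.031 to 0.029 and MDM4 from -0.028 to 0.13. The cause was not tested. With a random block (correlation 0.387), 17 of 21 targets called on the mean of sets kept the call and PLK3, TNFRSF10B, TRIAP1 and SESN2 lost it (adjusted p = 0.079, 0.16, 0.071 and 0.17). Replicate numbers did not pair the arrays (mean correlation of deviations 0.011 over 135 pairs of the same number, 3 of them over 0.1), and the replicate block gave 12, 13, 13 and 14 calls for shATM, shATR, shCHK1 and shCHK2 and changed no call of a single target over both sets. Detection limits MDM2 and SESN2, which were near background in one arm.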
